A study of Homo sapiens with 30 samples.

Results

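The 10 genes described here, of 20367 gene symbols in a PRO-Seq table of G401 cells, are 3 WNT ligands (WNT5A, WNT5B and WNT9A), 3 Frizzled receptors (FZD1, FZD2 and FZD7), 2 co-receptors (LRP5 and LRP6) and 2 target genes that also restrain the pathway (AXIN2 and DKK1). They were chosen by name from the pathway with results of these same PRO-Seq and ATAC-Seq data already known, and in that sense were selected on the values given below. Their PRO-Seq and ATAC-Seq values are therefore a description, with no test of the genes themselves. G401 is an established malignant rhabdoid tumor cell line that lacks SNF5, the SWI/SNF chromatin remodeling subunit encoded by SMARCB1. Cells were transduced with lentivirus carrying a tetracycline-inducible EGFP (the control), OmoMYC (a dominant-negative mutant of MYC, OMOMYC in the labels) or SNF5, selected in G418 as cell populations, and kept in 1 μg/ml doxycycline for 24 h, so that the control cells carry vector, selection and drug as well. PRO-Seq, a nuclear run-on assay that maps engaged RNA polymerases, and ATAC-Seq, which marks open chromatin, were each made in 3 samples per construct, and MYC ChIP-Seq in 2.

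WNT proteins are secreted lipid-modified ligands that bind Frizzled receptors on the cell surface. When LRP5 or LRP6 is engaged along with a Frizzled, the destruction complex built on Axin is disabled, β-catenin accumulates, and it activates target genes with TCF/LEF factors. AXIN2 and DKK1 are classic targets whose products feed back on the pathway, AXIN2 as a scaffold of the destruction complex and DKK1 as a secreted inhibitor that binds LRP5 and LRP6. WNT5A is best known for signaling that does not go through β-catenin.

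PRO-Seq gene body reads, which start 1 kb past the transcript start, totaled 28444943 to 46957634 per sample. Promoter-proximal reads, counted by the authors in the 50 bp window with most reads near each start, totaled 518900 to 3386528, and the 3 samples of replicate number 1 had the lowest totals (518900 to 672874). Samples with the same replicate number deviated together in every construct, and all fits below hold the number as a block. SMARCB1 had 4, 1 and 6 gene body reads with EGFP, 2, 5 and 4 with OmoMYC, and 2870, 4467 and 3440 with SNF5. VIM, a mesenchymal marker, had a gene body density of 22.3 to 54.0 RPKM (reads per kb of gene body, scaled to the effective gene body total of the sample), PTPRC of blood cells had 0 or 1 read per sample, PECAM1 of endothelium had 0 in all 9, and EPCAM of epithelium had 14 to 58.

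RefSeq promoter windows, 250 bases before to 50 bases after a start in GRCh38.p14, were available for 6 of the 10 genes (WNT5A, WNT5B, WNT9A, FZD1, LRP5 and DKK1), with 8 windows in all. Windows of WNT9A and DKK1 are shown because these are the genes with a window whose promoter ATAC-Seq peak differed in presence between constructs, and because WNT9A had the largest change in gene body reads. In WNT9A (chr1:227947883-227948182, minus strand) capitals mark the bases inside the ATAC-Seq site seen with SNF5, and in DKK1 (chr10:52314031-52314330, plus strand) they mark motif matches.
WNT9A: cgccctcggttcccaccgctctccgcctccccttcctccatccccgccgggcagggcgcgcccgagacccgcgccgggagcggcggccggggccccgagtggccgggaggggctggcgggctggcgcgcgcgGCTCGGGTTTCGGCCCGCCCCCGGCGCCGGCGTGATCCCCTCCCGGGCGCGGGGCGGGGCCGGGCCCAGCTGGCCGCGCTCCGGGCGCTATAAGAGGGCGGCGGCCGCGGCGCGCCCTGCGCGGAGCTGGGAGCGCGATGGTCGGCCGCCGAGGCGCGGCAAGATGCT
DKK1: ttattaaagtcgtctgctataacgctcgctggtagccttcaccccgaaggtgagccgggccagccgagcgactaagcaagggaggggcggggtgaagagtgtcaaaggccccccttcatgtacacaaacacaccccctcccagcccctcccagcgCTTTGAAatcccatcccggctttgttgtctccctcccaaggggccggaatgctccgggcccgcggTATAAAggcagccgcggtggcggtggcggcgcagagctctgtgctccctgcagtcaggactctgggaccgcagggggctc

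The window of WNT9A is 83.0% G and C, above 99.2% of all 34796 distinct windows, whose median is 58.7%. Its last 168 bases lie inside the site that only SNF5 samples had. DKK1 is 63.7% G and C. It holds CTTTGAA, a TCF/LEF motif, starting 95 bases before the start, and TATAAA starting 30 bases before it. The searches covered both strands, no matches overlapped, and CTTTGAT or CTTTGAA was in 6.86% of all windows and TATAAA in 11.6%. The E-box of MYC, CACGTG, is in 7.2% of all windows and the AP-1 motif, TGACTCA, in 4.96%, and neither was in any of the 8 windows. The other match was TTTATA, the TATA motif read on the opposite strand, in the WNT5B window at chr12:1628981-1629280, 78 bases before that start.

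In EGFP-expressing cells the 10 genes spanned a wide range of gene body density, given here and below as RPKM. DKK1 stood highest at 35.3 ± 20.0 (SD, n = 3), above 99.5% of the 15060 genes tested, followed by FZD2 at 22.2 ± 4.1 and WNT5A at 10.8 ± 7.26. FZD7 followed at 3.47 ± 0.489. LRP6 (1.29 ± 0.168), AXIN2 (0.983 ± 0.145), LRP5 (0.941 ± 0.253) and WNT9A (0.877 ± 0.359) lay near the middle of all genes, at percentiles 41.3 to 51.4. The lowest were FZD1 at 0.211 ± 0.142 and WNT5B at 0.170 ± 0.0774. Sample ranges of neighbors in this order overlapped for DKK1 and FZD2, WNT5A and FZD7, AXIN2 and LRP5, LRP5 and WNT9A, and FZD1 and WNT5B, so the order within each of these pairs was not resolved by 3 samples.

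**Figure D1:**
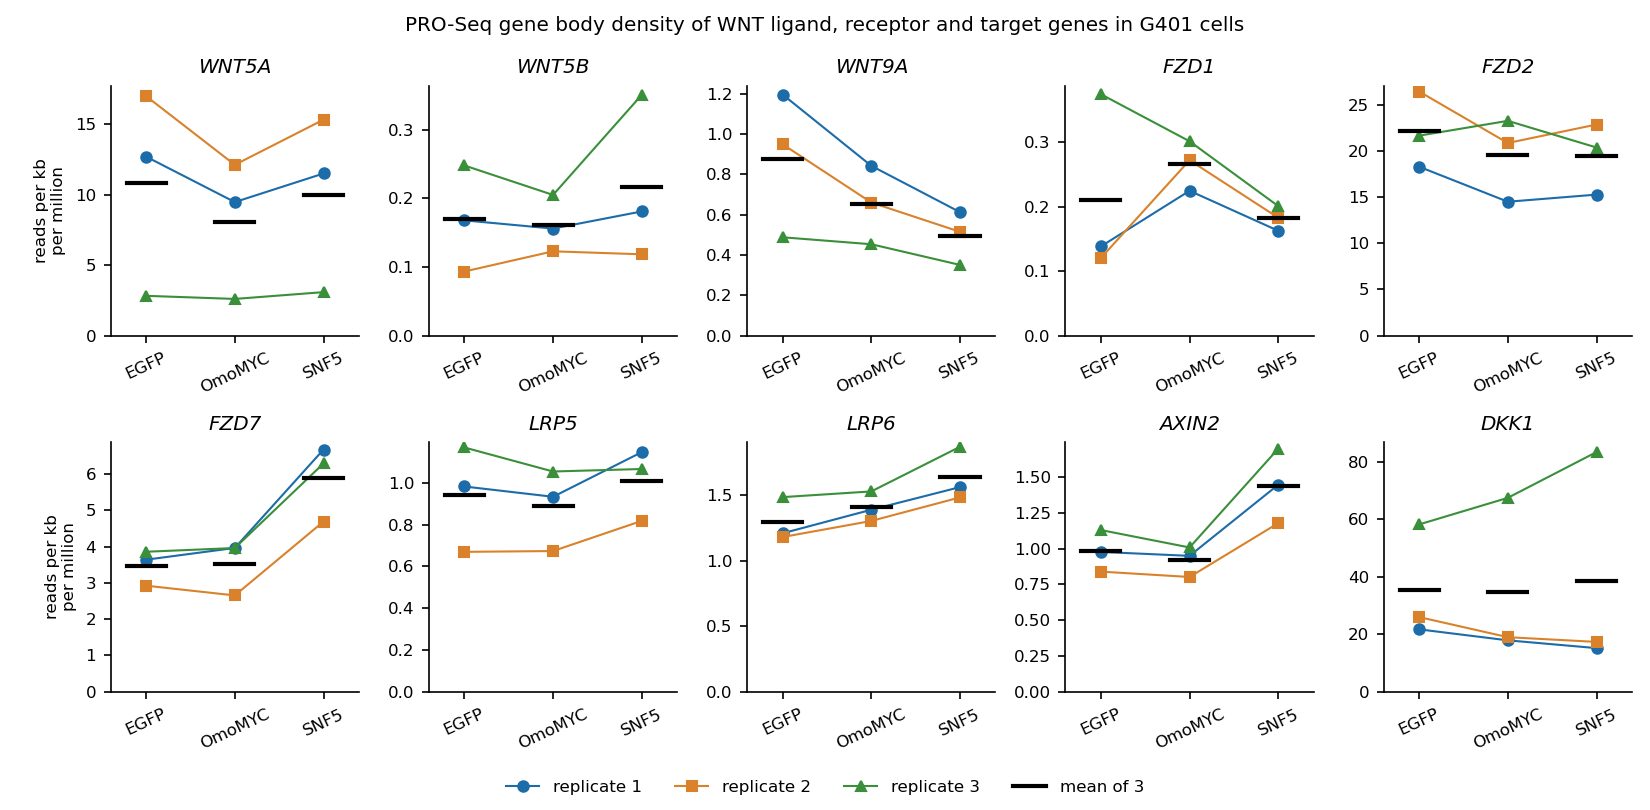
Gene body density (RPKM, linear axes from 0) of the 10 genes in each PRO-Seq sample, with points joined by replicate number and black bars for the mean of 3. FZD7 and AXIN2 were higher in all 3 SNF5 samples than in any EGFP sample, while for WNT5A and DKK1 the replicate number 3 samples stand far from the others.

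Gene body changes with SNF5 went in both directions among the 10 genes. In the edgeR quasi-likelihood fit of all 15060 genes, FZD7, AXIN2 and LRP6 were among those called higher with SNF5 and WNT9A among those called lower (Benjamini-Hochberg adjusted p under 0.05). That is 3 of 10 genes higher and 1 of 10 lower, where 17.3% of all genes were called higher and 17.1% lower. The median log2 change was 0.03 over the 10 genes and -0.03 over all genes. With OmoMYC, WNT5A was the single gene called, lower, where 4.52% of all genes were called lower and 3.98% higher. Because the genes were chosen with these contrasts known, nothing is read from these counts. Both contrasts share the 3 EGFP samples. Without the replicate number as a block, none of the 10 genes was called in either contrast. FZD7, AXIN2 and WNT9A were called with SNF5 with each replicate number left out in turn, which describes the fit and is no test of these genes.

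**Figure D2:**
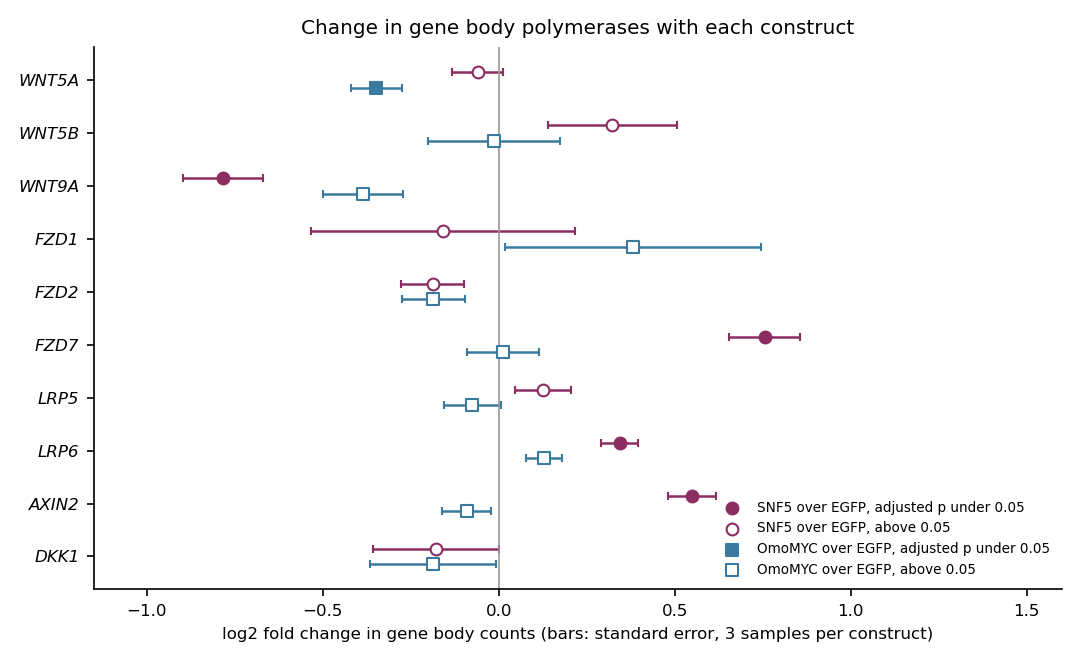
Log2 fold change of gene body counts for the 10 genes with SNF5 (circles) and OmoMYC (squares) over EGFP, with bars for the standard error from the fit. Filled symbols passed an adjusted p of 0.05 in the fit of all genes, and the largest values are those of WNT9A (-0.78) and FZD7 (0.76) with SNF5.

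Among the ligands, WNT9A, a ligand of skeletal and blood development, moved most. Its gene body density, listed here and below for replicates 1, 2 and 3 in that order, was 1.2, 0.949 and 0.487 with EGFP, 0.842, 0.660 and 0.453 with OmoMYC, and 0.612, 0.514 and 0.350 with SNF5. Within every replicate number EGFP was highest and SNF5 lowest, although the ranges of the constructs overlapped because replicate 3 was low in all. SNF5 over EGFP gave a log2 change of -0.78 (standard error 0.11), a fold of 0.58, and OmoMYC gave -0.39 (standard error 0.11), which was not called. Between SNF5 and OmoMYC it was -0.40 (standard error 0.11). WNT9A lies on chromosome 1 at 228109165 to 228135676 of hg19, minus strand, and the annotated microRNA MIR5008 shares 94 bp with it on the same strand.

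WNT5A carried more polymerases than the other 2 ligands, and its level depended on the replicate number. The gene spans 55499743 to 55521670 of chromosome 3 (hg19, minus strand). Density was 12.7, 17.0 and 2.82 in the EGFP samples, 9.46, 12.1 and 2.60 with OmoMYC, and 11.5, 15.3 and 3.08 with SNF5. Replicate 3 stood at 0.190 to 0.241 of the mean of replicates 1 and 2 in all 3 constructs, so the constructs overlapped throughout. Within each replicate number the OmoMYC sample was lower than the EGFP sample, and the log2 fold change was -0.35 (standard error 0.07, fold 0.79). Without replicate 1 or without replicate 2 this was no longer called. With SNF5 the change was -0.06 (standard error 0.07), and SNF5 over OmoMYC gave 0.29 (standard error 0.07). WNT5B, its close relative, was low, with 81 to 456 gene body reads per sample. Its density ran from 0.0934 to 0.248 with EGFP, 0.123 to 0.205 with OmoMYC and 0.119 to 0.351 with SNF5, with log2 fold changes of 0.32 (standard error 0.18) for SNF5 and -0.01 (standard error 0.19) for OmoMYC. It spans 1726222 to 1756377 of chromosome 12 (plus strand).

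Of the Frizzled receptors, only FZD7 had separated ranges between SNF5 and EGFP. FZD7 spans 202899310 to 202903160 of chromosome 2, FZD2 spans 42634812 to 42638630 of chromosome 17 and FZD1 spans 90893783 to 90898132 of chromosome 7, all on the plus strand of hg19. Its density was 3.64, 2.92 and 3.86 in the EGFP samples, 3.96, 2.66 and 3.96 with OmoMYC, and 6.68, 4.69 and 6.29 with SNF5. All 3 SNF5 samples lay above all EGFP and OmoMYC samples, and OmoMYC overlapped EGFP. SNF5 over EGFP gave a log2 change of 0.76 (standard error 0.10, fold 1.69), against 0.01 for OmoMYC (standard error 0.10), and SNF5 over OmoMYC gave 0.74 (standard error 0.10). Among the 10 genes, FZD7 and AXIN2 were the 2 with all SNF5 samples above all EGFP samples in gene body density, a pattern that 10.9% of all genes had, while 8.25% had all SNF5 samples below and none of the 10 did.

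FZD2, the most transcribed receptor of the 3, had densities of 18.3 to 26.5 with EGFP, 14.5 to 23.3 with OmoMYC and 15.3 to 22.9 with SNF5. The ranges overlapped. Within replicate numbers SNF5 over EGFP was -0.26, -0.21 and -0.09 on the log2 scale, and OmoMYC over EGFP was -0.34, -0.34 and 0.10. The fit gave -0.19 with each (standard error 0.09), not called, and without replicate 3 FZD2 was called lower with both (-0.24 with SNF5 and -0.35 with OmoMYC). FZD1 had only 12 to 58 gene body reads per sample over its short gene body of 3350 bp. Its density was 0.138, 0.120 and 0.375 in the EGFP replicates, 0.225, 0.272 and 0.302 with OmoMYC, and 0.163, 0.183 and 0.201 with SNF5. EGFP replicate 3 was 2.90-fold the mean of the other EGFP replicates, and the changes had wide errors, -0.16 with SNF5 (standard error 0.37) and 0.38 with OmoMYC (standard error 0.36). Without replicate 3 they were 0.39 and 0.92. FZD1, FZD2 and FZD7 have similar coding sequences, and how reads shared by near-identical stretches were assigned is not given in the sources used here beyond a mapping quality of at least 10.

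The co-receptors bind WNT together with a Frizzled, and LRP6 had the clearer change. LRP6 lies on the minus strand of chromosome 12 (12268961 to 12419811) and LRP5 on the plus strand of chromosome 11 (68080108 to 68216743). LRP6 density was 1.21, 1.2 and 1.48 in the EGFP samples, 1.39, 1.30 and 1.53 with OmoMYC, and 1.56, 1.48 and 1.87 with SNF5. Within each replicate number EGFP was lowest and SNF5 highest, with EGFP replicate 3 level with the lowest SNF5 sample. The fit gave 0.34 for SNF5 over EGFP (log2, standard error 0.05, fold 1.27), 0.13 for OmoMYC over EGFP (standard error 0.05) and 0.21 for SNF5 over OmoMYC (standard error 0.05). Without replicate 1 the change from EGFP to SNF5 was no longer called. LRP5 ran from 0.670 to 1.17 with EGFP, 0.674 to 1.05 with OmoMYC and 0.818 to 1.15 with SNF5, with changes of 0.13 (standard error 0.08) and -0.07 (standard error 0.08) for SNF5 and OmoMYC. BCL2L14 overlaps LRP6 by 95058 bp on the opposite strand, and the sources used here state that strand was used for the promoter-proximal window but do not state it for gene bodies.

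AXIN2, the scaffold that marks β-catenin signaling in many tissues, was higher with SNF5 in every replicate. It lies at 63524683 to 63557740 of chromosome 17, minus strand. Density was 0.977, 0.840 and 1.13 with EGFP, 0.95, 0.802 and 1.01 with OmoMYC, and 1.45, 1.2 and 1.70 with SNF5. No SNF5 sample overlapped the others, and the log2 change from EGFP was 0.55 (standard error 0.07, fold 1.46) with SNF5, -0.09 (standard error 0.07) with OmoMYC and 0.64 (standard error 0.07) for SNF5 over OmoMYC. An unnamed protein-coding annotation, ENSG00000266076, shares 23521 bp with AXIN2 on the same strand, so reads of the shared part cannot be told apart.

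DKK1 showed no common direction. Its short gene lies at 54074041 to 54077417 of chromosome 10, plus strand. Density was 21.7, 26 and 58.2 in the EGFP samples, 17.9, 19.0 and 67.5 with OmoMYC, and 15.2, 17.3 and 83.4 with SNF5. Replicate 3 stood above replicates 1 and 2 in all constructs, by 2.44-fold their mean with EGFP, 3.66-fold with OmoMYC and 5.13-fold with SNF5. SNF5 over EGFP was -0.52 and -0.58 on the log2 scale in replicates 1 and 2 and 0.52 in replicate 3. The fit gave -0.18 (standard error 0.18) with SNF5 and -0.19 (standard error 0.18) with OmoMYC. Without replicate 3 the change with SNF5 was -0.56 and the gene was called lower, so its value rests on which replicates are used. WNT5A and DKK1 thus both set replicate 3 apart from replicates 1 and 2, in opposite directions and in every construct. What distinguishes replicate number 3 is not given in the labels.

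The pausing index, the density in the promoter-proximal window over the gene body density, compares polymerases held near the start with those in elongation. The ranges of replicate numbers should be read apart, since totals of promoter-proximal reads differed between them. Of the 10 genes, 8 had a mean of at least 10 promoter-proximal counts, and WNT5B (1 to 5 reads per sample) and LRP5 (5 to 14) did not pass. WNT9A was called with a higher index with both constructs, 1 of 8 genes in each contrast. Among all 11171 genes, 2.02% were called higher and 1.64% lower with SNF5, and 2.18% higher and 0.0806% lower with OmoMYC. The median log2 change of the index over all genes was 0.14 with OmoMYC and 0.01 with SNF5, and over the 8 genes it was 0.20 and -0.16.

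WNT9A had an index of 29.1, 56.0 and 38.2 in the EGFP samples, 57.8, 167 and 84.6 with OmoMYC, and 56.7, 183 and 108 with SNF5. All samples of either construct lay above all EGFP samples. The share of all genes with index ranges separated in this way was not computed, here or for WNT5A below. The log2 change was 1.40 with SNF5 (standard error 0.26, fold 2.64) and 1.25 with OmoMYC (standard error 0.25, fold 2.38), and SNF5 over OmoMYC gave 0.15 (standard error 0.25). Without replicate 2, neither change was called. Promoter-proximal reads of WNT9A numbered 60, 79 and 43 with EGFP, 84, 163 and 89 with OmoMYC, and 70, 169 and 84 with SNF5. Scaled to the effective totals, promoter-proximal levels with SNF5 over EGFP were level in replicate 1 (fold 0.997) and higher in replicates 2 and 3 (fold 1.77 and 2.03). The change in promoter-proximal counts was 0.85 with OmoMYC (standard error 0.23), which was called, and 0.62 with SNF5 (standard error 0.23), which was not. It was the single call among the 8 genes in that region, where 1.58% of all 11241 genes were called higher and 0.169% lower with OmoMYC, and 2.62% and 1.67% with SNF5. With scaling by promoter-proximal totals, which moved the median of all genes with OmoMYC from 0.12 to -0.03, the WNT9A call was lost.

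**Figure D3:**
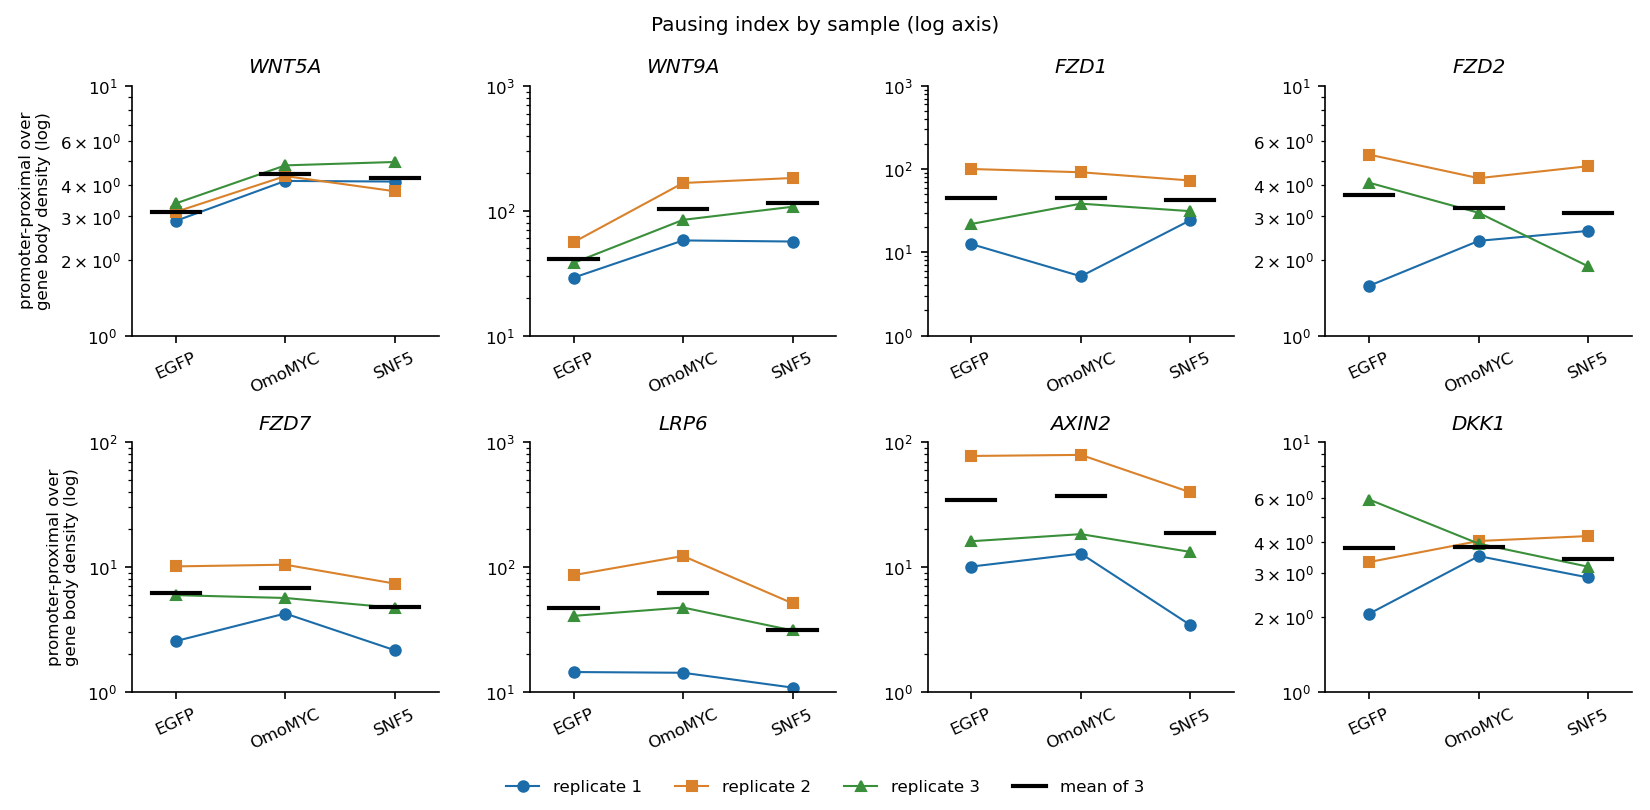
Pausing index (promoter-proximal over gene body density, log axes) of the 8 genes with enough promoter-proximal reads in each PRO-Seq sample, joined by replicate number, with black bars for the mean of 3. WNT9A and WNT5A lie above all EGFP samples with both constructs, and AXIN2 is lower with SNF5 in each replicate number. The WNT5A and AXIN2 changes were not called in the fit of all samples. The share of all genes with such patterns was not computed.

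WNT5A had the narrowest spread of index, 2.88, 3.13 and 3.38 with EGFP, 4.16, 4.36 and 4.81 with OmoMYC, and 4.14, 3.79 and 4.96 with SNF5. The construct samples did not overlap the EGFP samples, while the fitted changes of 0.50 (standard error 0.25) with OmoMYC and 0.43 (standard error 0.25) with SNF5 were not called. AXIN2 went the other way with SNF5. Its index was 10.1, 77.6 and 16.1 with EGFP, 12.8, 79.2 and 18.3 with OmoMYC, and 3.43, 39.7 and 13.2 with SNF5, a change of -0.82 (standard error 0.28) that was not called. Without replicate 3 it was -1.11 and called. Index values of LRP6 (-0.53, standard error 0.24) and FZD7 (-0.37, standard error 0.29) were lower with SNF5 in every replicate number and not called either. FZD1, FZD2 and DKK1 had no common direction over the 3 replicate numbers with SNF5.

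ATAC-Seq peaks were called by the authors in each sample, and overlapping peaks of the 9 samples were merged into 40003 sites. Lists held 9208 to 17817 peaks with EGFP, 7260 to 23684 with OmoMYC and 22722 to 33596 with SNF5, so a peak absent from a list can lie below the threshold in a shorter list. Within 50 kb of the 10 genes there were 26 sites. Of these, 11 (42.3%) had peaks with SNF5 and in no EGFP sample, against 50% of all sites, and 0 had peaks with EGFP and in no SNF5 sample, against 1.62% of all sites. Peaks of all 9 samples shared 5 sites (19.2%, against 13.2% of all).

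FZD1, FZD2 and AXIN2 had a peak within 1 kb of a start in all 9 samples. FZD7 and LRP6 had one in 8, the exception being OmoMYC replicate 1, the shortest list. Thus 5 of the 10 genes had a promoter peak in 3 of 3 EGFP samples, as did 35.7% of 16172 genes. Fold enrichments over local background, the authors' values, were 4.72 to 6.76 for the FZD2 promoter site across samples and 4.36 to 6.94 for that of AXIN2, with overlapping ranges between constructs. DKK1 had a promoter peak in 2 of 3 EGFP samples, 2 of 3 OmoMYC samples and 3 of 3 SNF5 samples. A site at -5886 bp from its start was found in 2, 1 and 3 samples, respectively. EGFP replicate 3 lacked both.

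WNT9A had no promoter peak with EGFP or OmoMYC and one in SNF5 replicates 1 and 2 (fold enrichments 3.59 and 4.50), at chr1:227947796-227948050 of hg38, at -65 bp from the start. A site 12970 bp inside the gene was present in 1 EGFP, 1 OmoMYC and 3 SNF5 samples. WNT5A, WNT5B and LRP5 had no peak within 1 kb of any annotated start in any sample, as was the case for 35.8% of all genes. Among the 368 genes with at least the EGFP gene body density of WNT5A, 20 (5.43%) had none. WNT5B and LRP5 each had a site of all 9 samples farther away, 46150 and 13610 bp past the nearest annotated start. Both lay downstream of the gene, 73891 and 162179 bp from the RefSeq gene start. The nearest WNT5A site lay 1998 bp past a start and was found in 1 EGFP, 1 OmoMYC and 2 SNF5 samples.

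Gained sites were those with a peak in 3 of 3 SNF5 (or OmoMYC) samples and in 0 of 3 EGFP samples. With SNF5, 9.09% of all sites were gained, and 1 of the 26 sites was, at chr17:44599559-44599823 of hg38, 42232 bp downstream of the FZD2 start, with fold enrichments of 5.95, 7.87 and 5.24. No site at these genes met the definition when the same number of top peaks (7260) was taken from each sample. OmoMYC gained 0.0275% of all sites and none of the 26, and no site at the 10 genes was lost with either construct. A gained site lay within 50 kb of 1 of the 10 genes (10.0%) and of 21.0% of all protein-coding genes of the table. FZD7, whose gene body density rose with SNF5, had 2 sites in 2 of 3 SNF5 samples and in no EGFP or OmoMYC sample. They lay 30927 and 50615 bp downstream. Sites in 2 of 3 SNF5 samples and no EGFP sample also lay at genes not called higher with SNF5. These genes were WNT5B (-11235 bp from a start), FZD2 (-23694 and 30102 bp) and WNT9A (-65 bp), which was called lower. The FZD2 site at 30102 bp had a peak in 1 OmoMYC sample as well. The share of all sites with this pattern is not given here.

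**Figure D4:**
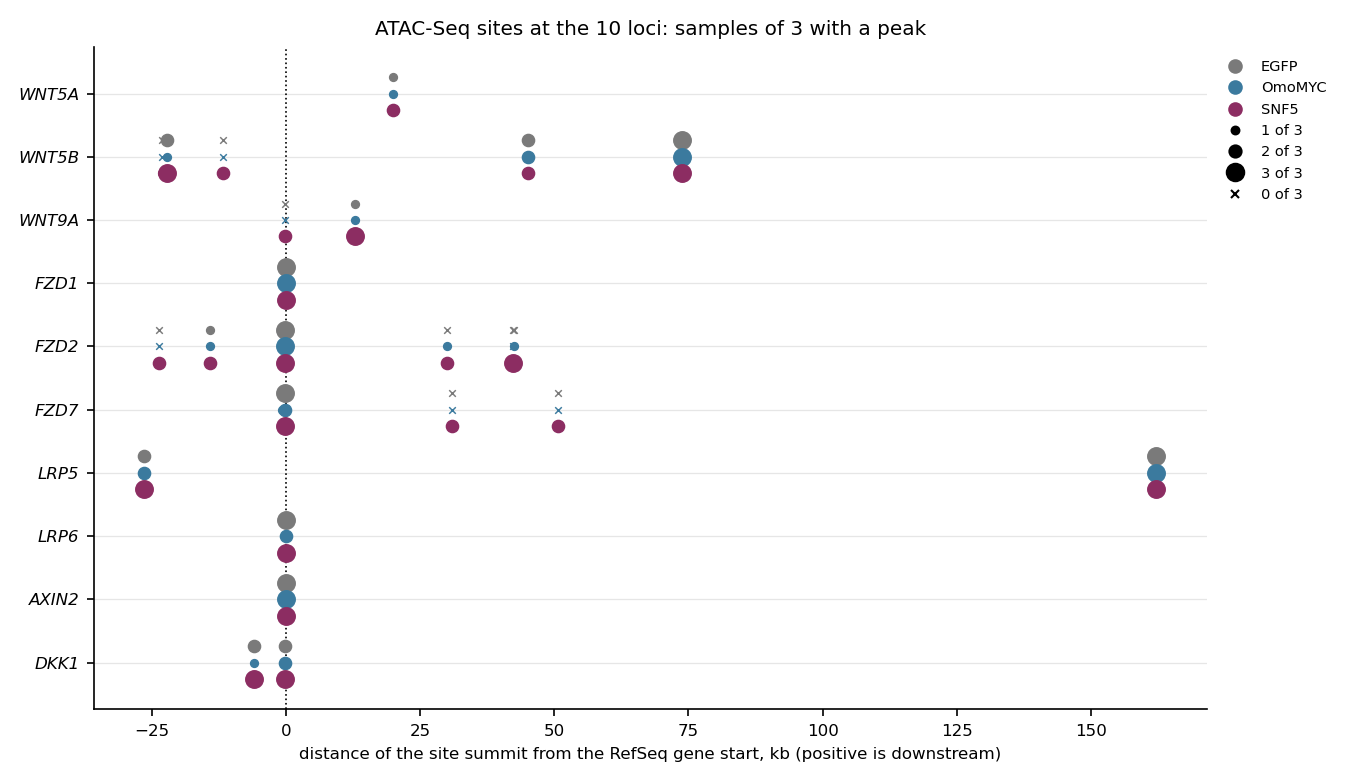
ATAC-Seq sites at the 10 loci by distance of the summit from the RefSeq gene start (kb, positive is downstream), where the size of a circle gives how many of 3 samples had a peak and a cross means 0 of 3. Promoter circles of FZD1, FZD2 and AXIN2 are full in all constructs, and the site 42 kb past FZD2 is full with SNF5 and absent with EGFP.

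MYC ChIP-Seq was not used to choose the genes. No gene had overlapping peaks of both EGFP samples within 1 kb of a start. In EGFP replicate 2, which held 5396 peaks against 940 in replicate 1, FZD2 had a peak with its summit 151 bp from the start (chr17:42634867-42635123 of hg19, fold enrichment 5.31) and LRP6 had one 29 bp from an annotated start (chr12:12420005-12420253, fold enrichment 2.99). That is 2 of 10 genes, while 27.2% of 16264 genes had a peak of replicate 2 and 5.38% a peak of replicate 1 within 1 kb. CACGTG was not found within 100 bp of either summit. No gene had a MYC peak in the SNF5 samples, with 137 and 27 peaks, or in the OmoMYC samples, whose lists held only a placeholder. The other 8 genes had no MYC peak within 5 kb of a start in any sample.

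The rest of the pathway was followed in 93 further genes, grouped in 10 lists by role. Of these, 77 passed the count filter, and with SNF5 21 were called higher and 10 lower, where 17.3% of all genes were called higher and 17.1% lower. The median log2 change was 0.13 (all genes, -0.03). With OmoMYC 2 were called higher and 5 lower (median 0.01), where 3.98% and 4.52% of all genes were. Of the 21 and the 2 called higher, 3 (WNT7A, RSPO1 and TNFRSF19) and 1 (RSPO1) would not have passed the filter on the samples of the other constructs alone. The counts of the lists describe them and single out none.

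Receptors other than Frizzleds gave 5 higher and 1 lower of 7 tested with SNF5, with a median of 0.98. LGR4, a receptor for R-spondins, rose from 268, 254 and 1503 gene body reads in the EGFP replicates to 3656, 3020 and 4741 (log2 fold change 2.82, standard error 0.31, adjusted p = 0.00032). ROR1, a receptor tyrosine kinase that binds WNT5A, rose from 21, 22 and 27 reads to 69, 266 and 166 (2.56, standard error 0.34, adjusted p = 0.00083). PTK7, a planar polarity co-receptor, fell (-0.32, standard error 0.05, adjusted p = 0.0020). Of 12 other ligands tested, 2 were called higher, with a median of 0.20, and WNT7A was the larger, with 1, 1 and 2 reads with EGFP and 19, 42 and 13 with SNF5. Its ratio of summed reads was 16.9 (exact 95% interval 6.33 to 63.7, counting error only). It passed the count filter only through its SNF5 samples, so no test is given for it. Of 5 other Frizzleds, 2 were called higher (median 0.17). Neither secretion gene tested was called (median -0.19).

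Target genes gave 3 higher and 1 lower of 8 (median 0.32). The 3 include TNFRSF19, which would not have passed the count filter without its SNF5 samples. CD44, a cell surface glycoprotein, had the largest rise, from 35, 36 and 54 reads to 1461, 1311 and 157 (4.06, standard error 0.64, adjusted p = 0.0020), and its replicate 3 rose least. Planar cell polarity genes gave 4 higher and 1 lower of 10 (median 0.28). Among them DAAM2, a formin-related protein that binds Dishevelled, had the largest rise (2.62, standard error 0.29, adjusted p = 0.00037). Its reads were few, 4, 20 and 39 with EGFP and 49, 96 and 270 with SNF5. Antagonists and their receptors gave 2 higher and 1 lower of 7 (median 0.39). KREMEN2, a receptor for DKK proteins, fell from 524, 425 and 702 reads to 411, 298 and 314 (-0.82, standard error 0.12, adjusted p = 0.0015). R-spondins and receptor turnover genes gave 1 higher and 1 lower of 6 (median 0.34). The higher was RSPO1, which would not have passed the count filter without its SNF5 samples. Dishevelled and destruction complex genes gave 1 higher and 3 lower of 13 (median -0.04), among them APC2, a relative of APC (-0.74, standard error 0.10, adjusted p = 0.0010), and TNKS2, a tankyrase that marks Axin for degradation (-0.33, standard error 0.08, adjusted p = 0.012). TCF/LEF factors and cofactors gave 1 higher and 2 lower of 7 (median 0.11), and PYGO1, a cofactor of β-catenin, fell by 0.40 (standard error 0.06, adjusted p = 0.0019). Of the genes named here with a test, PTK7 and TNKS2 were not called without replicate 1. PTK7, PYGO1 and TNKS2 were not called without replicate 2, and CD44 alone was called without the block. WNT7A fell below the count filter without replicate 2 and was not tested there.

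With OmoMYC 7 of these genes were called. RSPO1, which encodes an R-spondin, had 5, 5 and 0 reads with EGFP and 26, 18 and 3 with OmoMYC, a ratio of summed reads of 4.69 (exact 95% interval 2.34 to 10.4, counting error only). It passed the count filter only with its OmoMYC and its SNF5 samples both counted. On OmoMYC and EGFP alone its mean was 9.5, under the filter of 10, so that fit did not test it. DESeq2 did not call it. APC of the destruction complex rose by 0.25 (standard error 0.05, adjusted p = 0.033). Called lower were FRZB, a secreted antagonist (-0.89, standard error 0.21, adjusted p = 0.039), and CCND1, cyclin D1 (-0.35, standard error 0.08, adjusted p = 0.035). So were PRICKLE1 of planar polarity (-0.32, standard error 0.07, adjusted p = 0.035), PYGO1 (-0.31, standard error 0.06, adjusted p = 0.026) and AXIN1, a relative of AXIN2 (-0.26, standard error 0.07, adjusted p = 0.043). None of the 7 was called without replicate 1, without replicate 2 or without the block. RSPO1 was not tested without replicate 1 or without replicate 2, since it then fell below the count filter.

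**Figure D5:**
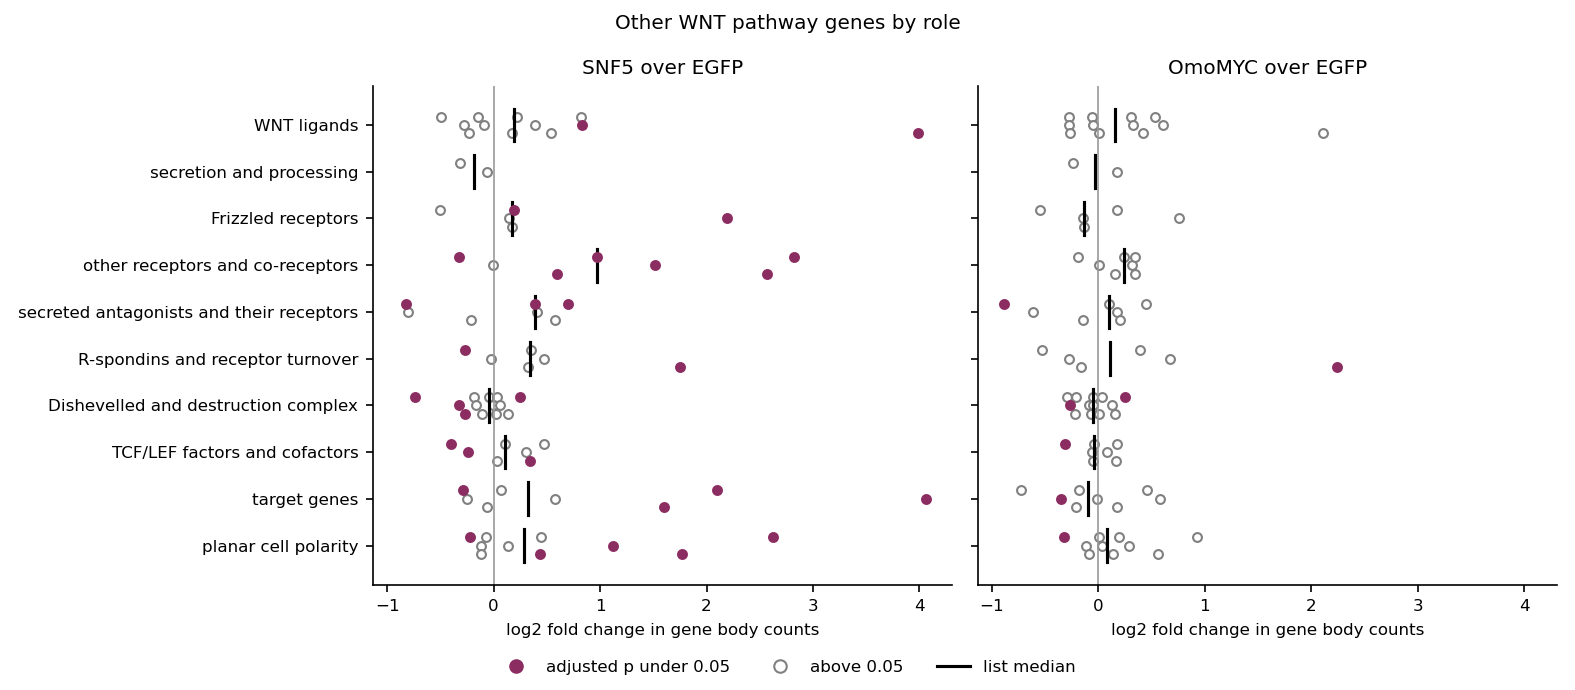
Log2 fold change of gene body counts for the 77 other pathway genes that passed the count filter, by role, with SNF5 (left) and OmoMYC (right) over EGFP. Filled points passed an adjusted p of 0.05 over all genes and black bars give each list's median, which is 0.98 for the other receptors and co-receptors with SNF5.

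In the direct comparison of SNF5 and OmoMYC, 5 of the 10 genes were called. AXIN2, FZD7, LRP6 and WNT5A were called higher with SNF5 and WNT9A lower, where 11.4% of all genes were called higher and 7.56% lower. These values share samples with both contrasts above. The genes were chosen with these data known, so nothing is read from the counts. AXIN2 and FZD7 were the genes called in this comparison with each replicate number left out in turn.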

How the data were processed

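PRO-Seq (9 samples), ATAC-Seq (9) and MYC ChIP-Seq (6) of G401 cells were used, and 6 IgG samples were not used here. The authors trimmed PRO-Seq and ATAC-Seq reads with cutadapt, aligned reads with Bowtie2 (PRO-Seq and ChIP-Seq to hg19, ATAC-Seq to hg38) and dropped PRO-Seq reads with mapping quality under 10. The deposited PRO-Seq table, made by the authors with NRSA, holds raw counts of each transcript near its start and over its body, plus a density signal (reads per bp) that served only to check body lengths. The deposited peak lists, called by the authors per sample with MACS2 (q of 0.001 for ATAC-Seq, 0.01 for ChIP-Seq), hold fold enrichment, a ratio over local background, and -log10 p and q. They hold no read counts, and library depths of these assays were not used here.

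The member genes, gene lists and tests were chosen with earlier results of these data known. Of 20582 transcripts, 1 per symbol with the most reads was kept. Counts were tested with edgeR 4.0.16 (quasi-likelihood, R 4.3.3), with construct and replicate number as terms, a mean of at least 10 counts, and gene body totals times RLE factors as library sizes for both regions. The pausing index change was the region by construct interaction with a term per sample. Adjusted p-values are Benjamini-Hochberg over all genes tested. Standard errors are the log2 change over the square root of F. The methods used by the authors modeled a batch effect, and correlations of deviations from construct means ran from 0.789 to 0.903 between same-numbered samples and from -0.692 to 0.143 between others (gene body), so numbers were taken as pairs. The study describes replicates as independent experiments (biological replicates), while the labels give only their numbers. Densities were divided by effective totals. On simulated data for SNF5 against EGFP with 200 genes changed 2-fold, 98.5% were recovered for gene bodies (14970 genes) with 9.63% false calls, above the nominal 5%, 73.0% for promoter-proximal counts (11168 genes, 3.31% false) and 50.0% for the pausing index (11098 genes, 3.85% false).

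Distances were taken to GENCODE release 44 starts (GRCh37, and the GRCh38 positions it lists), and locus spans from RefSeq GRCh38.p14. No coordinate was converted. All 93 pathway genes were in the table, older symbols included. Named pathway genes were the up to 5 called with the largest rise and fall per contrast. MYC itself was left out of the lists since reads of OmoMYC, its mutant, fall on it. Python 3.11.15, pandas 2.3.3 and SciPy 1.17.1 were used otherwise. Alternatives varied scaling, filter, test (DESeq2 1.42.0), block, samples in the fit, peak threshold, peak number, overlap and distance.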

Additional observations from a re-analysis of the deposited data

How the results depend on the processing

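Among 464 values of the 10 genes recomputed under alternatives, 432 moved by less than their error and 32 moved by more. None of those called in the main fit changed sign, nor did any of 131 recomputed values of named pathway genes. Sign changes of values not called, such as that of DKK1 with SNF5, were not counted. TMM factors changed none of the counts of called genes by over 1.5 times. The block for replicate number mattered most. With no replicate block, and so no pairing, the calls among the 10 genes were 0 in every contrast (with the block, 4 in gene bodies for SNF5 over EGFP, 1 for OmoMYC over EGFP, 5 for SNF5 over OmoMYC, and 1 for promoter-proximal counts with OmoMYC and 1 for each pausing index contrast). Over all genes the unblocked counts were 223, 1 and 75 for gene bodies (5181, 1279 and 2858 with the block), 0 for promoter-proximal counts (483 with SNF5, 197 with OmoMYC) and 0 for the pausing index (409 and 252), and of the other pathway genes 3 with SNF5 and 0 with OmoMYC (31 and 7).

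Leaving out each replicate number gave, for the 10 genes, 3 to 8 calls with SNF5, 0 to 5 with OmoMYC and 2 to 7 for SNF5 over OmoMYC in gene bodies, 0 to 1 with SNF5 and 0 to 1 with OmoMYC in promoter-proximal counts, and 0 to 2 and 0 to 1 for the pausing index. Over all genes the ranges were 1423 to 8593, 2 to 6753, 737 to 6267, 47 to 1001, 3 to 856, 4 to 620 and 0 to 953, in the same order, and 10 to 47 and 0 to 35 for the other pathway genes. The highest gene body counts came without replicate 3, when DKK1, FZD2, LRP5 and WNT5A were also called with SNF5, and DKK1, FZD2, LRP6 and WNT9A with OmoMYC. The log2 change of DKK1 with SNF5 was -0.18, and 0.13 without the block and 0.03 without replicate 2.

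DESeq2 called 2 of the 10 genes in gene bodies with OmoMYC (WNT5A and WNT9A), 2097 of all genes and 11 other pathway genes there, and 0 of the 10 in promoter-proximal counts with OmoMYC, with 312 of all genes with SNF5. Fitting only the constructs compared called 1969 genes with OmoMYC. In promoter-proximal counts with SNF5, a mean of at least 1 count gave 746 calls and promoter-proximal totals 1041, and those totals gave 0 of the 10 genes with OmoMYC. Gained ATAC-Seq sites at the 10 genes numbered 7 with a peak in at least 2 of 3 SNF5 samples, 0 with equal numbers of top peaks, 0 within 10 kb and 1 to 6 with a replicate left out (1 otherwise). Genes with a MYC peak numbered 2 when either EGFP sample sufficed (0 otherwise). The causes were not tested. Counts of 12 to 58 reads limit FZD1, promoter-proximal reads limit WNT5B and LRP5, and absence from a peak list does not show closed chromatin.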

Other observations

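Gained ATAC-Seq sites with SNF5 (peaks in 3 of 3 SNF5 and 0 of 3 EGFP samples) lay within 50 kb of 24 of the 93 other pathway genes (25.8%), against 21.0% of all genes. The genes named here were chosen after their values were seen. TCF7L2, a TCF/LEF factor, had 4 such sites over a gene of 217432 bp, and its gene body counts rose with SNF5 (log2 change 0.34, standard error 0.05, edgeR adjusted p = 0.0012). LGR5, an R-spondin receptor, had 2 sites, and its counts rose as well (1.51, standard error 0.40, adjusted p = 0.018). JUN, which encodes an AP-1 subunit, had 1 site and rose by 1.6 (standard error 0.19, adjusted p = 0.00050). CD44 and LGR4 had 1 site each. Other genes rose with no gained site within 50 kb. Among them were FZD6, a Frizzled receptor (2.19, standard error 0.41, adjusted p = 0.0042), and DAAM1, a Dishevelled-binding formin (1.77, standard error 0.19, adjusted p = 0.00028). FZD6 and LGR5 had few gene body reads, with means of 21.7 and 43.1 over all PRO-Seq samples. Over the EGFP and OmoMYC samples alone the means were 12.3 and 24.3, so both changes rest on low counts. TNKS2, PTK7, ZNRF3 and CELSR1 had 1 site each, and all were called lower. WLS, FZD4, RYK and FRZB had 1 site each as well and were not called with SNF5. A link between gained sites and gene body counts was not tested. Longer genes have longer windows in which a site can lie, and gene length was not tested here.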
